A study of Mus musculus with 48 samples.

Results

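The Egr and Nr4a immediate-early transcription factors comprise 7 genes, *Egr1*, *Egr2*, *Egr3*, *Egr4*, *Nr4a1*, *Nr4a2* and *Nr4a3*. They were chosen by gene symbol, each matched 1 Ensembl ID, and they make up 7 of the 52636 genes measured. RNA-seq libraries came from amygdala punches of 48 female mice of the C57BL/6NTac-Brd1 strain, 8 to 11 weeks old per the series' design text. Mice were either wild type (WT) or Brd1+/-, heterozygous for a targeted deletion between loxP sites around exons 3 to 5 of *Brd1*, which encodes a bromodomain protein of histone acetyltransferase complexes. Brd1+/- mice keep 1 intact copy, and all of them come from a single targeted line. Mice of each genotype were injected with saline (vehicle), with 10 mg/kg of the tricyclic drug imipramine (IMN) or with 5 mg/kg of fluoxetine (FLX), which blocks serotonin reuptake, so that 6 groups of 8 mice resulted. Per the study's methods, mice had undergone behavioral tests that ended with forced swimming shortly before the brain was collected, and litter-matched animals were allocated to tests. All groups shared this handling and no undisturbed mice were analysed here, so the values do not show how far swimming itself affected these genes. The study asked whether reduced *Brd1* expression alters gene expression in the brain and whether antidepressants act on such changes.

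Immediate-early genes are transcribed within minutes of neuronal stimulation without new protein synthesis, because their activators, serum response factor with its ternary complex partners and CREB, are already present and are switched on by calcium and MAP kinase signalling. Egr proteins are zinc-finger factors that bind GC-rich sites, and the Nab proteins that they induce bind them and repress their activity. The Nr4a proteins are orphan nuclear receptors that act without a known hormone, as monomers or dimers, and Nr4a1 and Nr4a2 also with retinoid X receptors. In the forebrain, Egr1 and Egr3 are used as markers of recent neuronal activity and are needed for lasting synaptic change, and *Nr4a2* is in addition a lineage factor of midbrain dopamine neurons and is expressed in the claustrum and deep cortical layers.

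TPM, the unit of all levels here, scales reads by gene length and then to a fixed total per library, so that sequencing depth cannot be recovered from it. *Brd1* averaged 35.6 ± 5.09 TPM (SD, n = 8) in WT vehicle and 26.0 ± 2.90 in Brd1+/- vehicle mice, 36.9 ± 2.83 against 23.4 ± 4.84 under IMN and 32.9 ± 4.45 against 23.5 ± 3.49 under FLX. Its log2 difference was -0.45 (adjusted p = 0.0512), -0.68 (adjusted p = 0.102) and -0.49 (adjusted p = 0.0362, limma) in these 3 comparisons. Of 6 amygdala markers, *Lmo3* (25.2 to 301 TPM), *Prkcd* (8.40 to 164), *Nts* (2.76 to 144.9) and *Rspo2* (0.0818 to 31.4) were above 0 in every library, while *Crh* (up to 36.3) and *Dlk1* (up to 94.7) were listed at 0 in at least 1. Markers of neighbouring brain areas were unequal between libraries. The summed level of 8 hypothalamic and thalamic markers, among them the vesicular glutamate transporter Slc17a6 and the hypothalamic peptides Hcrt, Pmch, Avp and Oxt, ranged from 1.88 to 85.5 TPM in WT vehicle, from 5.93 to 10417 in WT IMN, from 13.6 to 4680 in WT FLX, from 3.16 to 671 in Brd1+/- vehicle, from 2.58 to 2942 in Brd1+/- IMN and from 2.25 to 43.2 in Brd1+/- FLX. It reached 100 TPM in 4 WT FLX, 3 WT IMN, 3 Brd1+/- vehicle and 3 Brd1+/- IMN libraries, and in none of WT vehicle or Brd1+/- FLX. *Hcrt* was listed at 0 in 6 of 8 WT vehicle, 4 of 8 WT FLX, 2 of 8 WT IMN, 7 of 8 Brd1+/- IMN and all Brd1+/- vehicle and Brd1+/- FLX libraries. The summed level of 6 forebrain excitatory neuron markers, such as Slc17a7 and Camk2a, lay between 134 and 2652 TPM over all 48 libraries. The summed level of 11 striatal markers ranged from 206 to 13319.5 TPM in WT vehicle and from 287 to 12759.5 in Brd1+/- FLX. That of 8 choroid plexus markers ranged from 9.06 to 29781 TPM in WT vehicle and from 20.2 to 29137 in Brd1+/- FLX. Both sums varied in the other groups as well. Low hypothalamic and thalamic sums in WT vehicle and Brd1+/- FLX therefore do not mean like tissue content. In bulk tissue, fewer cells of a type and less RNA per cell cannot be told apart. The comparisons below are also given without the libraries at or above 100 TPM of hypothalamic and thalamic markers, a step added after the data had been seen.

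Promoters of the members were searched for the elements through which immediate-early genes are known to be induced. Whether such elements bear on the shared movement of members between libraries, given below, was not tested. Without *Egr1* and *Egr3*, RefSeq promoter sequences (GRCm38.p6) were used for 5 of the 7 members. For each, bases before the annotated start are shown 5′ to 3′ on the gene's strand, with motif matches in capitals. The *Egr2* window is chr10:67537619-67537868 and the *Nr4a1* window chr15:101266596-101266845, both plus and inside the annotated gene. The others are *Egr4* chr6:85513590-85513839 (minus), *Nr4a2* chr2:57124004-57124253 (minus) and *Nr4a3* chr4:48045055-48045152 (plus). The *Nr4a3* stretch ends where GENCODE places the first exon, upstream of the RefSeq start, so that 1 of its 4 matches, at -147 to -143 bases from that start, is not shown.
Egr2: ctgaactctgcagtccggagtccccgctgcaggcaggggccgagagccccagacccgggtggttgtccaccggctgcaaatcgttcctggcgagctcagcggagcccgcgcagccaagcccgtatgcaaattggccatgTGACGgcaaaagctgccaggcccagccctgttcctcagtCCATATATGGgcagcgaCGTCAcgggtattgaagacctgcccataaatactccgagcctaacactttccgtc
Egr4: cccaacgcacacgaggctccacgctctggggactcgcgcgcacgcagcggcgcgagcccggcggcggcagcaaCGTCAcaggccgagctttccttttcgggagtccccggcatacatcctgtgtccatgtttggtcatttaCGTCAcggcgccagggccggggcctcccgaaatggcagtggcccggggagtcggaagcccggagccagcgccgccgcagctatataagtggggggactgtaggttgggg
Nr4a1: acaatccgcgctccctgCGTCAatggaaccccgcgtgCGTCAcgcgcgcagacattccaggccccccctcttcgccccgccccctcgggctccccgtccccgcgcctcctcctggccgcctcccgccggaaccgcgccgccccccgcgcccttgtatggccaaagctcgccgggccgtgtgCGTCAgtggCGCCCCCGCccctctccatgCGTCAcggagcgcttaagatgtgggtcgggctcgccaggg
Nr4a2: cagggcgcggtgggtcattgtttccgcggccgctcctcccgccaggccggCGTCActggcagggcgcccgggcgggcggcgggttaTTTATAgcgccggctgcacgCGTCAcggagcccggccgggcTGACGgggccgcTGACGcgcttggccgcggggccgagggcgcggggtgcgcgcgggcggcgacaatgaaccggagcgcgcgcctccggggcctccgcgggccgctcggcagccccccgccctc
Nr4a3: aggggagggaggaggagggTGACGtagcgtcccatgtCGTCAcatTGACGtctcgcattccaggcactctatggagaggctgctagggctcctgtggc

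Motifs were searched on both strands in windows of 300 bases, 250 before and 50 from the start. The core of the cyclic AMP response element, TGACG, occurred in the window of all 5 members, at 2 positions in *Egr2* and *Egr4* and 4 in each Nr4a gene. Of all 32851 promoter windows, 20.8% held it. The full palindrome TGACGTCA, which contains the core and was found in 1.79% of windows, was in none of these. The CArG box, to which serum response factor binds, was present in *Egr2*, between its pair of cores at 72 to 63 bases before the start, against 1.63% of all windows. An Egr site (GCGTGGGCG or GCGGGGGCG, 3.47% of windows) occurred in *Nr4a1*, 60 to 52 bases before the start. The Nr4a element AAAGGTCA was in none of the 5 and in 1.51% of all windows, and TATAAA was in *Nr4a2* and in 13.6% of all. *Egr2* has 5 annotated starts, of which the third is shown. The core was in the windows of 3 of the 5 and the CArG box in those of 4. The windows of starts 3 to 5 overlap and hold the same 2 cores and the same CArG box, so these are not separate matches. A match describes the letters only and not binding.

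**Figure D1:**
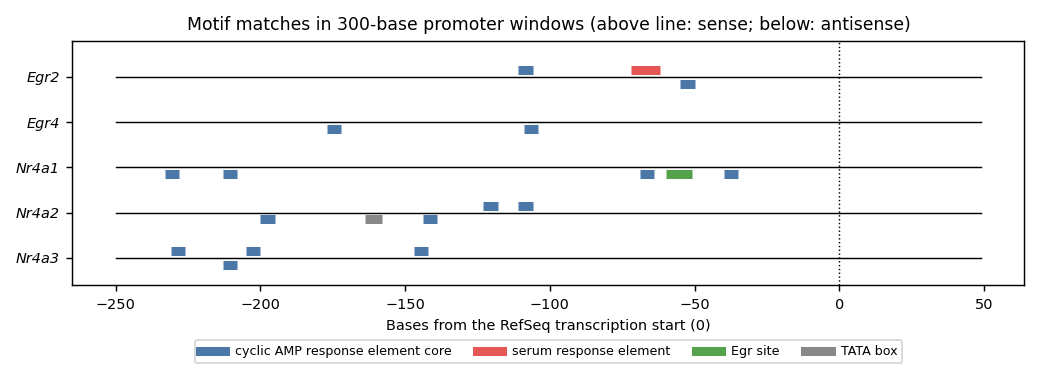
Positions of motif matches in the promoter windows of 5 members, in bases from the RefSeq transcription start at 0, with matches on the gene's strand (or on both strands) above each line and matches on the other strand below it. Cores of the cyclic AMP response element (blue) are in all 5 rows, the serum response element (red) in *Egr2*, the Egr site (green) in *Nr4a1* and TATAAA (grey) in *Nr4a2*.

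The members lie on different chromosomes of GRCm38 and none overlaps another annotated gene. *Egr1* lies on chromosome 18 (34859823 to 34864984, plus strand), *Egr2* on 10 (67535475 to 67542188, plus), *Egr3* on 14 (70077203 to 70082614, plus), *Egr4* on 6 (85511121 to 85513589, minus), *Nr4a1* on 15 (101254269 to 101274795, plus), *Nr4a2* on 2 (57106830 to 57124003, minus) and *Nr4a3* on 4 (48045153 to 48086447, plus). Over all 48 libraries, *Egr1* was the highest of the 7 genes with a mean of 71.7 TPM, followed by *Egr3* with 46.1, *Nr4a1* with 45.1, *Egr4* with 26.4, *Nr4a2* with 20.4, *Nr4a3* with 17.8 and *Egr2* with 4.47. All 7 were above 0 in every library and entered every test. They varied more between libraries of 1 group than most genes. Among 19222 genes with a mean of at least 1 TPM the median within-group SD of log2(TPM + 0.1) was 0.38, whereas it was 0.56 for *Egr1*, 0.55 for *Nr4a1*, between 0.87 and 1.05 for *Egr2*, *Egr3*, *Egr4* and *Nr4a3*, and 2.01 for *Nr4a2*. *Nr4a2* ranged from 0.163 to 120 TPM, with values of 120 and 108 in 2 WT vehicle libraries and 113 and 105 in 2 WT IMN libraries.

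WT vehicle had the highest group mean of 6 members, and Brd1+/- FLX came second for each of those 6. *Egr1* averaged 113 ± 23.2 TPM in WT vehicle, 70.0 ± 29.7 in Brd1+/- FLX, 68.8 ± 19.5 in Brd1+/- vehicle, 62.5 ± 31.9 in WT IMN, 62.1 ± 15.4 in Brd1+/- IMN and 53.3 ± 19.3 in WT FLX (SD, n = 8 each). Only the step from WT vehicle to the next group was larger than the greater SD of the 2 neighbours. *Egr2* stood at 7.67 ± 4.46, 6.58 ± 3.70, 3.52 ± 2.36, 3.50 ± 2.48, 2.91 ± 2.24 and 2.65 ± 2.58 TPM in WT vehicle, Brd1+/- FLX, Brd1+/- vehicle, Brd1+/- IMN, WT FLX and WT IMN, with no step between neighbours beyond the spread. *Egr3* followed with 63.0 ± 16.4 in WT vehicle, 54.7 ± 24.9 in Brd1+/- FLX, 45.8 ± 18.7 in Brd1+/- vehicle, 44.2 ± 20.8 in Brd1+/- IMN, 40.3 ± 31.0 in WT IMN and 28.7 ± 23.0 in WT FLX. *Egr4*, the shortest gene of the family, had 41.8 ± 9.60, 34.5 ± 12.01, 24.8 ± 11.0, 22.6 ± 8.48, 19.5 ± 13.5 and 15.5 ± 10.6 TPM in the same order of groups. Neighbouring groups of *Egr3* and *Egr4* differed by less than the larger SD throughout.

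Of the nuclear receptors, *Nr4a1* averaged 68.7 ± 22.7 TPM in WT vehicle, 53.5 ± 19.4 in Brd1+/- FLX, 39.2 ± 17.0 in Brd1+/- vehicle, 38.9 ± 10.7 in Brd1+/- IMN, 35.4 ± 16.5 in WT FLX and 34.8 ± 15.0 in WT IMN. *Nr4a3* had 29.2 ± 13.7, 26.3 ± 14.5, 16.3 ± 9.72, 15.5 ± 11.3, 11.0 ± 6.53 and 8.69 ± 4.72 TPM in that order. *Nr4a2* alone was highest in WT IMN, at 38.4 ± 46.3, next to 38.1 ± 47.6 in WT vehicle, and lowest in WT FLX, at 6.16 ± 6.11 (SD, n = 8), with 16.2 ± 15.5 in Brd1+/- FLX, 13.3 ± 8.59 in Brd1+/- IMN and 10.1 ± 8.18 in Brd1+/- vehicle between them. Its SD exceeded its mean in the former 2 groups. Neighbours in the order did not differ beyond the larger SD for any of the 3 nuclear receptors.

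**Figure D2:**
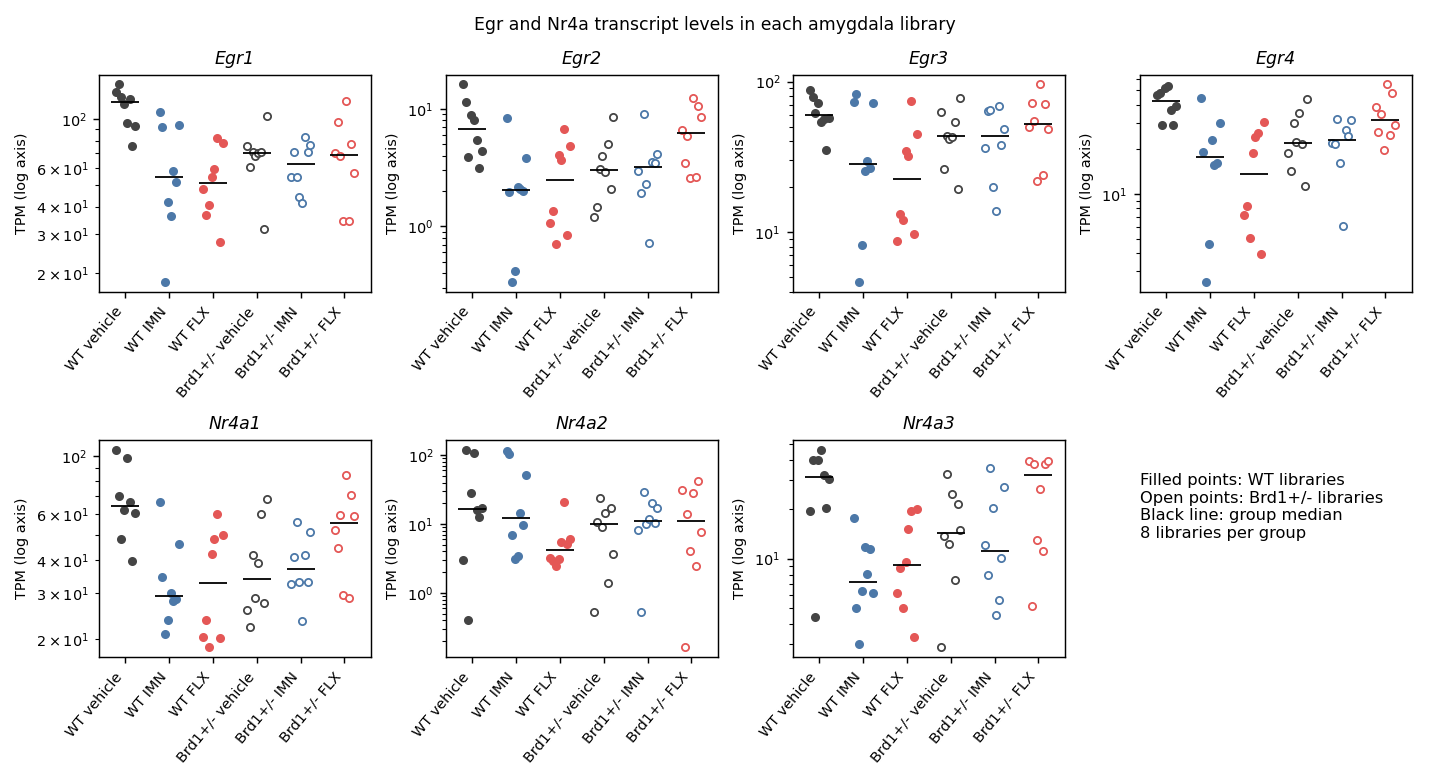
TPM of each member in every library, on a log axis, by group, with filled points for WT, open points for Brd1+/- and a black line at the group median (n = 8). *Egr1* medians were 120 TPM in WT vehicle and 51.2 in WT FLX, and *Nr4a2* spread from 0.163 to 120 TPM.

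The first question was whether these genes differed between FLX and vehicle in WT mice. Vehicle mice carried sample codes from a separate number range, so that drug and code range cannot be told apart here. *Egr1* ranged from 75.2 to 144 TPM (median 120) in WT vehicle and from 27.5 to 81.8 (median 51.2) in WT FLX, with 6 of 8 FLX libraries below every vehicle library. It fell by 1.15 on the log2 scale (SE 0.21, adjusted p = 0.0287, limma with Benjamini-Hochberg adjustment over all genes tested), and kept that call in 6 of 16 fits that each left out 1 library. *Egr4* ranged from 29.1 to 53.4 TPM (median 42.7) in vehicle and from 3.95 to 30.7 (median 13.6) in FLX mice, and 7 of 8 FLX libraries lay below all vehicle libraries. Its difference was -1.75 (SE 0.39, adjusted p = 0.0580) and did not pass. *Egr3* ranged from 35.2 to 88.4 TPM (median 59.7) in vehicle and from 8.71 to 74.5 (median 22.6) in FLX mice, with 6 of 8 FLX libraries below all vehicle libraries. *Nr4a3* ranged from 4.44 to 46.2 TPM (median 31.4) in vehicle and from 3.31 to 20.2 (median 9.17) in FLX mice, with 1 of 8 FLX libraries below all vehicle libraries. The differences of *Egr2* (-1.58), *Egr3* (-1.48), *Nr4a1* (-1.03), *Nr4a3* (-1.40) and *Nr4a2* (-1.58) did not pass either, with adjusted p between 0.0912 and 0.400. All 7 genes had lower means in FLX, with a median difference of -1.48 against 0.05 over all genes tested. In this comparison 1 of 7 members was called where 0.335% of all genes were, and 6 of 7 had an unadjusted p under 0.05 where 16.8% of all genes had.

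In Brd1+/- mice the mean log2 levels of 6 of 7 members were higher in FLX than in vehicle mice (median difference 0.47 against -0.04 over all genes tested), and none passed. *Egr1* ranged from 31.6 to 103 TPM (median 70.5) in vehicle and from 34.3 to 121.6 (median 69.0) in FLX mice, a difference of -0.04 (95% confidence interval -0.60 to 0.52). *Egr2* was at a median of 2.99 TPM in vehicle and 6.23 in FLX mice, with 3 of 8 FLX libraries above all vehicle libraries, and its difference of 0.91 had an unadjusted p of 0.0426 and an adjusted p of 0.692. For *Egr4* the medians were 22.1 and 31.7 TPM and the difference 0.53 (interval -0.04 to 1.10). *Nr4a1* differed by 0.47 (interval -0.10 to 1.03) and *Nr4a3* by 0.69 (interval -0.38 to 1.76). None of the 7 was called in limma and 1 had an unadjusted p under 0.05, against 0.731% and 6.94% of all genes. Without the 3 vehicle libraries at or above 100 TPM of hypothalamic and thalamic markers, *Egr2* differed by 0.70 (unadjusted p = 0.170), *Egr4* by 0.19, *Egr1* by -0.26 and *Egr3* by -0.15.

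The test of the difference between the genotypes' FLX effects called 3 members. *Egr4* had an interaction of 2.28 on the log2 scale (SE 0.49, adjusted p = 0.0123), *Egr2*, which is also known for its part in myelination, one of 2.49 (SE 0.66, adjusted p = 0.0426) and *Nr4a1* one of 1.50 (SE 0.40, adjusted p = 0.0459, limma). A positive value means that the FLX difference was higher in Brd1+/- than in WT mice. In 32 fits that each left out 1 library, *Egr4* was called in 32, *Egr2* in 14 and *Nr4a1* in 11. *Nr4a1* ranged from 39.6 to 105 TPM in WT vehicle, from 18.6 to 60.1 in WT FLX, from 22.3 to 68.5 in Brd1+/- vehicle and from 28.6 to 84.8 in Brd1+/- FLX, so that every pair of groups overlapped. For *Egr1* the interaction was 1.11 (adjusted p = 0.0936), for *Egr3* 1.70 (adjusted p = 0.0952), for *Nr4a3* 2.09 (adjusted p = 0.125) and for *Nr4a2* 1.88 (interval -0.97 to 4.72). Members were called in 3 of 7 cases and had an unadjusted p under 0.05 in 6 of 7, against 1.71% and 16.8% of all genes, and their median of 1.88 stood beside -0.10 for all genes tested. The 2 FLX comparisons and the interaction share the same libraries and are not separate evidence.

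**Figure D3:**
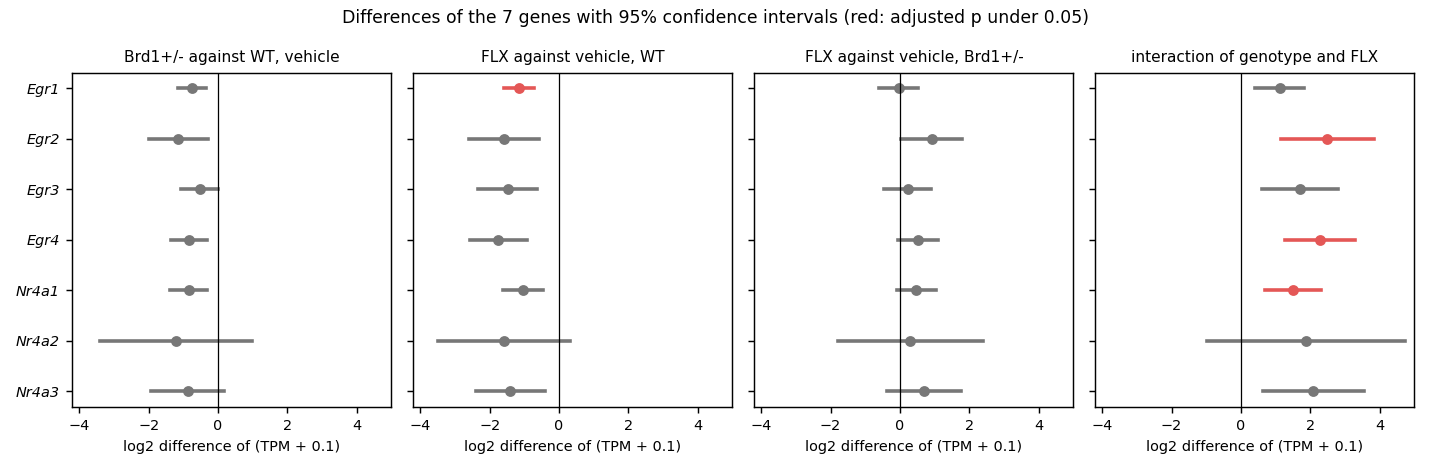
Log2 differences of (TPM + 0.1) with 95% confidence intervals for each member in 4 comparisons, in red where the adjusted p was under 0.05. *Egr1* is red for FLX in WT mice (-1.15), and *Egr2* (2.49), *Egr4* (2.28) and *Nr4a1* (1.50) are red for the interaction, while the Brd1+/- FLX comparison is centred near 0 for *Egr1*.

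Markers of other brain areas moved with these differences. Of the hypothalamic and thalamic markers, 6 of 6 tested had higher means in WT FLX than in WT vehicle (median difference 2.59), and 7 of 7 tested had negative interactions (median -4.73). The list held 8, and a marker could enter a test through libraries of 1 group where it was high. Forebrain excitatory markers had lower means in WT FLX (6 of 6, median -1.67) and positive interactions (6 of 6, median 2.14), and oligodendrocyte markers had higher means in WT FLX (8 of 8, median 1.18) and negative interactions (8 of 8, median -2.01). With the mean log2 level of the hypothalamic and thalamic markers as a covariate, *Egr1* differed by -0.71 between FLX and vehicle in WT mice (adjusted p = 0.463), and the interactions became 1.21 for *Egr2*, 1.13 for *Egr4* and 0.57 for *Nr4a1* (adjusted p = 0.715, 0.515 and 0.740). With only the libraries under 100 TPM of these markers, 4 of the WT FLX, 5 of the Brd1+/- vehicle and all of the other 2 groups, the values were similar. *Egr1* then differed by -0.72 (adjusted p = 0.682), and the interactions were 1.20 for *Egr2*, 0.92 for *Egr4* and 0.58 for *Nr4a1* (adjusted p = 0.982, 0.714 and 0.991). With the forebrain excitatory score as the covariate, *Egr4* stayed called (1.96, adjusted p = 0.0285), and *Egr1* (-1.05, adjusted p = 0.116), *Egr2* (2.00, adjusted p = 0.0787) and *Nr4a1* (1.22, adjusted p = 0.0858) were not. With both scores in the fit none was called, and *Egr1* differed by -0.65 between FLX and vehicle in WT mice with an unadjusted p of 0.00510. Over all genes, calls for the interaction went from 455 to 335 with the excitatory score, 70 with the hypothalamic and thalamic score, 45 with both and 18 in the libraries under 100 TPM. These 4 fits were chosen after the data had been seen. With the striatal, oligodendrocyte and choroid plexus scores together none was called either, *Egr1* differing by -0.91 and the *Egr4* interaction being 1.64 (adjusted p = 0.147). Of the endothelial markers 1 of 8 was called in WT FLX, *Abcb1a* (0.61, adjusted p = 0.0352), a drug efflux pump of the blood-brain barrier. The part of these markers in the differences was not tested beyond these fits.

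**Figure D4:**
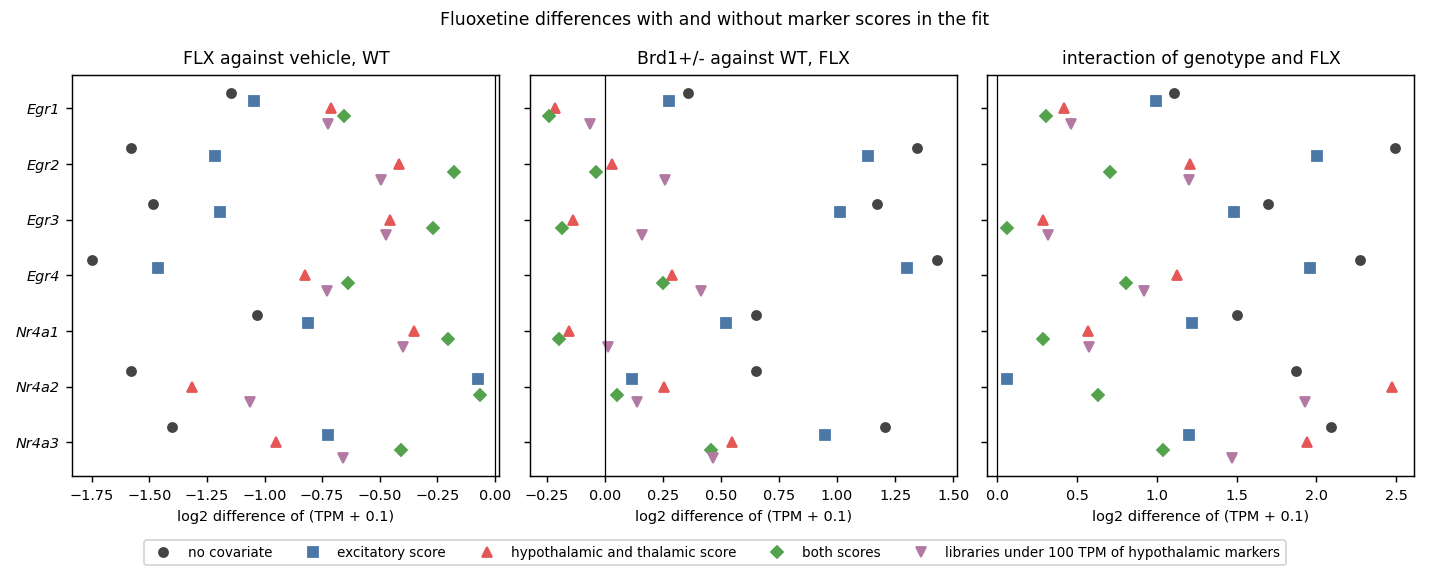
Log2 difference of each member in 3 comparisons that involve FLX, without a covariate (black), with the excitatory score (blue), the hypothalamic and thalamic score (red) or both (green) in the fit, and in libraries under 100 TPM of hypothalamic and thalamic markers (purple). For *Egr1* in WT mice the value moved from -1.15 to -0.71 with the hypothalamic and thalamic score, and for the *Egr4* interaction from 2.28 to 1.13.

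IMN was compared with vehicle in the same way. In WT mice *Nr4a1* ranged from 39.6 to 105 TPM (median 64.2) in vehicle and from 20.8 to 66.7 (median 29.2) in IMN, with 6 of 8 IMN libraries below every vehicle library. Its difference was -1.01 (SE 0.24) with an unadjusted p of 0.000576 and an adjusted p of 0.722. The differences were -1.03 for *Egr1*, -1.84 for *Egr2*, -1.14 for *Egr3*, -1.50 for *Egr4* and -1.67 for *Nr4a3*, and 0.23 for *Nr4a2* (interval -2.05 to 2.52). None passed in limma, and 6 of 7 had an unadjusted p under 0.05. Over all genes 0% were called and 4.58% had an unadjusted p under 0.05. With the hypothalamic and thalamic score in the fit the differences of *Nr4a1* and *Nr4a3* were -0.72 and -1.58 (unadjusted p = 0.00239 and 0.00557), and that of *Egr3* was -0.35. Without the 3 IMN libraries at or above 100 TPM of these markers, *Nr4a1* differed by -0.75 and *Nr4a3* by -1.37 (unadjusted p = 0.0115 and 0.0169), *Egr3* by -0.30 and *Nr4a2* by 1.01. In this comparison 5 of 6 hypothalamic and thalamic markers tested had higher means in IMN (median difference 0.99), as had 8 of 8 oligodendrocyte markers (0.92), and 5 of 6 forebrain excitatory markers had lower means (-0.92).

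In Brd1+/- mice the IMN differences lay between -0.14 for *Egr4* and 0.61 for *Nr4a2*, with 0 of 7 members called and 0 of 7 under an unadjusted p of 0.05, against 0.776% and 9.3% of all genes. The interval for *Egr1* was -0.55 to 0.30 and that for *Nr4a1* was -0.45 to 0.55. The interaction of genotype and IMN was positive for all 7 (median 1.06), with 1.06 for *Nr4a1* (unadjusted p = 0.00442, adjusted p = 0.277), 0.90 for *Egr1*, 1.80 for *Egr2*, 1.35 for *Egr4* and 1.56 for *Nr4a3*. Of the 7, 0 were called in limma and 5 had an unadjusted p under 0.05, against 0.536% and 9.24% of all genes. Oligodendrocyte markers had negative interactions (8 of 8, median -1.95, all with an unadjusted p under 0.05), as had 7 of 8 hypothalamic and thalamic markers (median -1.81), and 6 of 6 forebrain excitatory markers had positive ones (median 1.12). In the libraries under 100 TPM the interaction was 0.72 for *Nr4a1* (unadjusted p = 0.0719), 0.45 for *Egr1*, 1.22 for *Egr2*, 0.59 for *Egr4* and 1.57 for *Nr4a3*. In Brd1+/- mice the IMN differences then lay between -0.21 for *Egr1* and 1.06 for *Nr4a2*. Vehicle mice carried sample codes from a separate number range, so that code range and drug cannot be told apart in comparisons with vehicle.

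The genotypes were next compared within each treatment. In vehicle mice, *Egr1* ranged from 31.6 to 103 TPM (median 70.5) in Brd1+/- and from 75.2 to 144 (median 120) in WT libraries, with 6 of 8 Brd1+/- libraries below all WT libraries. Its difference was -0.75 (SE 0.19, unadjusted p = 0.00110, adjusted p = 0.105). The means of all 7 were lower in Brd1+/- mice (median -0.85), by -0.84 for *Egr4*, -0.85 for *Nr4a1*, -1.15 for *Egr2*, -0.53 for *Egr3*, -0.88 for *Nr4a3* and -1.22 for *Nr4a2*. None passed in limma, although 4 had an unadjusted p under 0.05, against 0.708% and 8.52% of all genes. With the striatal score in the fit *Egr1* passed (-0.78, adjusted p = 0.0349). In libraries under 100 TPM of hypothalamic and thalamic markers it differed by -0.53 (adjusted p = 0.631). Oligodendrocyte markers had higher means in Brd1+/- vehicle mice (8 of 8, median 1.49, all with an unadjusted p under 0.05), with summed levels of 2453 to 17129 TPM against 718 to 11721 in WT, and forebrain excitatory markers had lower means (6 of 6, median -1.30). With the striatal, oligodendrocyte and choroid plexus scores in the fit *Egr1* differed by -0.50 (adjusted p = 0.419), and with the forebrain excitatory score by -0.77 (adjusted p = 0.166).

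Under IMN the genotypes differed by between -0.85 (*Nr4a2*) and 0.67 (*Nr4a3*), and 0 of 7 members were called and 0 of 7 had an unadjusted p under 0.05, against 0.017% and 3.58% of all genes. The median of the 7 was 0.23 within sample codes below 400 (6 Brd1+/- and 4 WT libraries) and 0.60 above (2 and 4). *Nr4a2* differed by 0.26 below and -3.32 above, so that its sign turned with the code range. In the libraries under 100 TPM of hypothalamic and thalamic markers the differences lay between -1.74 (*Nr4a2*) and 0.57 (*Nr4a3*). Under FLX the means of all 7 were higher in Brd1+/- mice (median 1.17). *Egr4* ranged from 19.7 to 54.9 TPM in Brd1+/- and from 3.95 to 30.7 in WT libraries, with 4 of 8 Brd1+/- libraries above all WT libraries, and differed by 1.43 (SE 0.41, adjusted p = 0.0859). *Nr4a3* had 5 of 8 Brd1+/- libraries above all WT libraries and differed by 1.21 (adjusted p = 0.201). None was called in limma and 5 had an unadjusted p under 0.05, against 1.54% and 16.6% of all genes. Here 6 of 6 hypothalamic and thalamic markers tested had lower means in Brd1+/- mice (median -4.11). *Lhx5* (-4.23) and *Fezf1* (-3.99), transcription factors of hypothalamic patterning, were lower with an adjusted p under 0.05. *Lhx5* was listed at 0 in 6 of 8 Brd1+/- FLX libraries and *Fezf1* in 5 of 8, so that these sizes depend on the pseudocount. *Lhx5* was above 0.1 TPM in all WT FLX libraries and could pass the filter through that group alone. With the hypothalamic and thalamic score in the fit the genotype difference was 0.29 for *Egr4*, 0.55 for *Nr4a3*, -0.14 for *Egr3* and -0.15 for *Nr4a1*. In the libraries under 100 TPM of hypothalamic and thalamic markers it was 0.41 for *Egr4*, 0.47 for *Nr4a3*, 0.16 for *Egr3* and -0.07 for *Egr1*. Within sample codes below 400 the median difference of the 7 was 0.47 (5 Brd1+/- and 3 WT libraries) and above 400 it was 1.24 (3 and 5), with all 7 positive in both.

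FLX and IMN were also compared directly. In WT mice *Nr4a2* had a median of 4.19 TPM under FLX and 12.1 under IMN, and differed by -1.81 (SE 0.74, unadjusted p = 0.0264, adjusted p = 0.858), while the other 6 differed by -0.34 to 0.27. In Brd1+/- mice *Egr2* (0.96) and *Egr4* (0.67) had unadjusted p of 0.0440 and 0.0401. Of the 7 members 0 were called in either genotype, and 1 in WT and 2 in Brd1+/- mice had an unadjusted p under 0.05. Over all genes 0% were called in WT mice and 0% in Brd1+/- mice, and 4.78% and 2.99% had an unadjusted p under 0.05. Below and above sample code 400 the median difference of the 7 was -0.01 and -0.16 in WT mice and 0.38 and 0.58 in Brd1+/- mice. *Nr4a2* in WT mice differed by -0.53 below and -2.74 above. In the libraries under 100 TPM of hypothalamic and thalamic markers it differed by -2.08 (unadjusted p = 0.0749) in WT mice, and *Egr2* and *Egr4* by 0.58 and 0.31 in Brd1+/- mice (unadjusted p = 0.219 and 0.199).

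The other genes of the pathway were read in the same fits, in which 1.71% of all genes were called for the interaction of genotype and FLX, 0.335% for FLX in WT mice and 1.54% for the genotypes under FLX. Among 5 partners, 1 was called for the interaction of genotype and FLX, *Nab2* (1.32, adjusted p = 0.0286), the Egr-induced repressor of Egr proteins. Of 19 upstream factors and kinases 1 was called there, *Srf* (0.78, adjusted p = 0.0401), which encodes serum response factor. Of 19 other immediate-early transcription factors 1 was called, *Npas4* (1.62, adjusted p = 0.0263), a calcium-dependent factor of excited neurons, and it also fell with FLX in WT mice (-0.95, adjusted p = 0.0429). *Fos* was not called there, with an interaction of 0.52 (interval -0.90 to 1.94) and an FLX difference of -0.23 in WT mice (interval -1.09 to 0.62). Of 18 activity-induced effectors 3 were called for the interaction, *Inhba* (2.60, adjusted p = 0.0163), *Plk2* (1.66, adjusted p = 0.0396) and *Gadd45b* (adjusted p = 0.0460), and *Gadd45b*, a stress-inducible gene of DNA demethylation, fell in WT FLX (-1.11, adjusted p = 0.0352). *Inhba*, which encodes an activin subunit, was higher in Brd1+/- than in WT mice under FLX (1.65, adjusted p = 0.0369). *Arc*, whose product removes AMPA receptors from synapses, differed by -1.37 between FLX and vehicle in WT mice (adjusted p = 0.0890), with an interaction of 1.74 (adjusted p = 0.0699). None of 10 feedback inhibitors of MAP kinase signalling was called in any comparison, and *Nab2* was the only called gene among 10 textbook targets. No pathway gene was called in the IMN comparisons or in the comparison of genotypes in vehicle mice. None was called for FLX against vehicle in Brd1+/- mice or for FLX against IMN. Of the 6 pathway genes called for the interaction, 1 was called with the excitatory score (*Inhba*, 2.55, adjusted p = 0.0307) and none with the hypothalamic and thalamic score, with both scores or in the libraries under 100 TPM. With the hypothalamic and thalamic score the interaction was 0.50 for *Nab2*, 0.27 for *Srf*, 1.03 for *Npas4* and 0.38 for *Plk2*. The FLX differences of *Npas4* and *Gadd45b* in WT mice were -0.71 and -0.70 with that score (adjusted p = 0.593 and 0.552), and *Inhba* under FLX differed by 0.77 between genotypes (adjusted p = 0.943), though by 1.52 with the excitatory score (adjusted p = 0.0423).

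Between libraries of the same group, most members rose and fell together. Pearson's r was computed for log2(TPM + 0.1) over 48 libraries with group means subtracted, with p-values from 100000 permutations within groups, adjusted over the 21 pairs. The 6 pairs of Egr genes had r between 0.70 and 0.89. *Egr2* and *Nr4a1* had the highest value of all pairs (r = 0.90, Spearman's rho = 0.89, permutation p = 1e-05 for both, the smallest that these permutations can give), and r was 0.89 without the 2 libraries farthest from the median. *Egr1* and *Egr3* had r = 0.89 and rho = 0.89 (permutation p = 1e-05). In all, 18 of 21 pairs had an adjusted p under 0.05, with a median r of 0.68. *Nr4a2* and *Nr4a3* had r = 0.68 (rho = 0.64) with each other and r of 0.22 and 0.21 with *Egr1*, which did not pass. By sample code, 9 of 21 pairs passed within the 16 vehicle libraries (median r 0.51), 18 of 21 within the 18 drug libraries with codes below 400 and 15 of 21 within the 14 above 400. In vehicle libraries *Nr4a2* had r of 0.92 with *Nr4a3* and -0.33 with *Egr3*, whereas below 400 it had 0.31 and 0.75.

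The members also tracked markers of brain areas and of cell types, in a family of 105 correlations. *Egr1* had r of -0.67 with the astrocyte score, -0.59 with the oligodendrocyte score and 0.51 with the striatal score. *Nr4a2* and *Nr4a3* had r of -0.44 and -0.47 with the striatal score over all libraries. These 2 values were -0.88 and -0.82 within the vehicle codes, 0.14 and -0.24 in drug codes below 400 and -0.22 and -0.29 above. *Egr3* had r = -0.83 (rho = -0.86, adjusted permutation p = 6.56e-05) with the hypothalamic and thalamic score, and r stayed at -0.80 without the 2 farthest libraries and lay between -0.77 and -0.90 within the 3 ranges of sample codes. For *Egr4*, *Nr4a1*, *Egr2* and *Egr1* the values were -0.76, -0.71, -0.67 and -0.62. *Nr4a2* had r = -0.07 with this score and r = 0.91 (rho = 0.92, adjusted permutation p = 6.56e-05) with the forebrain excitatory score, which was between 0.92 and 0.94 within each code range. *Nr4a3* had r = 0.70 with the excitatory score. The hypothalamic and thalamic score and the excitatory score were then removed beside the group means, a step added after the data had been seen. After that, 12 of 21 pairs had an adjusted permutation p under 0.05 and the median r was 0.36. *Egr1* with *Egr3* (0.83), *Egr2* with *Egr4* (0.71) and *Egr2* with *Nr4a1* (0.70) were the highest that remained, and all 6 pairs with *Nr4a2* lay between -0.29 and 0.16.

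**Figure D5:**
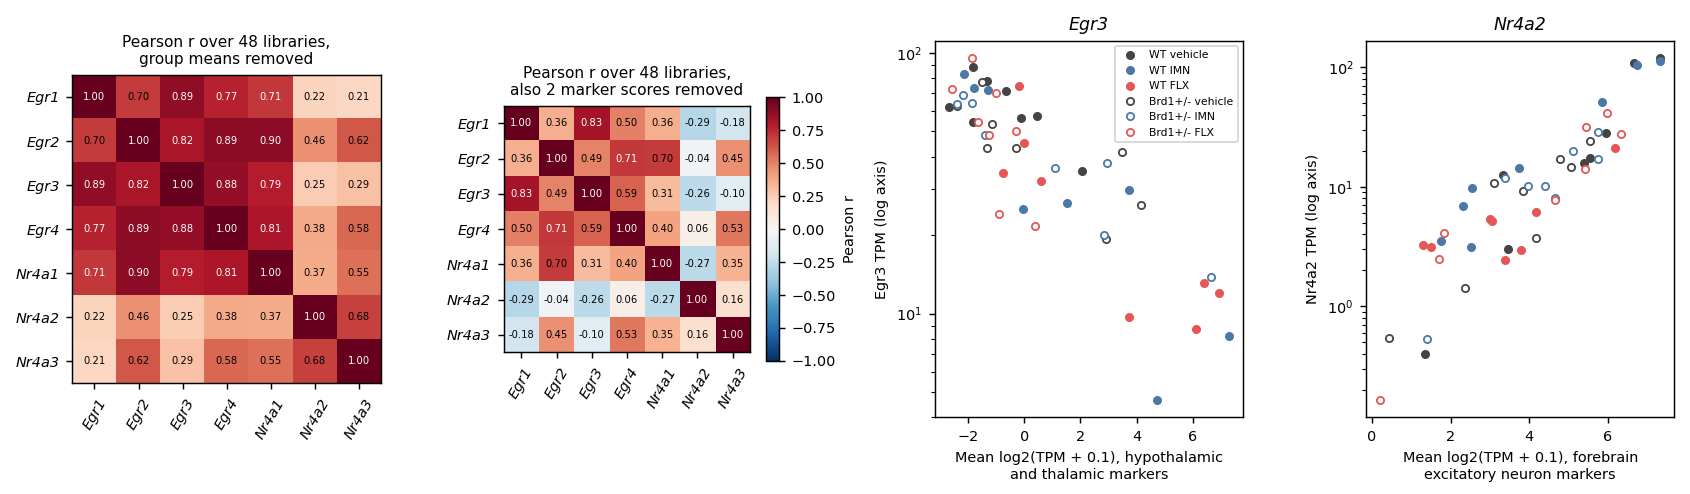
Left, Pearson r between members over 48 libraries after group means, and then also both marker scores, were removed. Right, TPM on a log axis of *Egr3* against the hypothalamic and thalamic score and of *Nr4a2* against the forebrain excitatory score, 1 point per library, with r after subtracting group means of -0.83 and 0.91.

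Against other immediate-early genes, *Arc* had r of 0.74 to 0.88 and *Npas4* of 0.59 to 0.80 with *Egr1* to *Egr4* and *Nr4a1*. *Fos* differed from these. Its r was -0.18 with *Egr1*, -0.28 with *Egr3* and 0.01 with *Egr4*, none with an adjusted p under 0.05, but 0.55 with *Nr4a2* and 0.65 with *Nr4a3* (rho = 0.41 and 0.48, adjusted permutation p = 0.00185 and 0.000350 for r). These 2 values were 0.80 and 0.85 within the vehicle codes but 0.23 and 0.61 in drug codes below 400 and 0.37 and 0.51 above. *Junb* was listed at 0 in 23 of 48 libraries and gives no usable correlation. By the highest r over the 48 libraries among 19215 other genes, the genes most like each member were *Stk32c* (0.88), *Slc8a2* and *Pip5k1a* for *Egr1*, *Dusp14* (0.88), *Btaf1* and *Fam120a* for *Egr2*, *Homer1* (0.92), *Nab2* and *Sipa1l1* for *Egr3*, and *Icam5* (0.92), *Nab2* and *Rprml* for *Egr4*. For *Nr4a1* they were *Arc* (0.88), *Btaf1* and *Dnajb5*, for *Nr4a2* they were *Tmem178* (0.95), *Vxn* and *B3galt2*, and for *Nr4a3* *Fam81a* (0.87), *Kctd4* and *Matn2*. The mean of the 7 standardised members was most like *Camk2a* (0.90), the excitatory neuron kinase that is itself one of the excitatory markers, then *Dnajb5*, *Enc1* and *Igfbp6*. For comparison, the 99th percentile of r over all these genes was between 0.66 and 0.80 for the single members.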

How the data were processed

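RNA was measured in 48 amygdala punches. Per the study's methods, the authors trimmed single-end reads, aligned them to GRCm38 with HISAT2 2.1.0 and quantified Ensembl genes with StringTie 1.3.4. The values the authors deposited are TPM, 1 column per library (library sums 999524 to 999772), so depth is unknown and TPM shares depend on all other transcripts. The series' design text names other brain regions, and the sample labels, which say amygdala, were followed. Use of strand in counting is not stated.

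Groups came from the sample labels. Since TPM is no count, limma 3.58.1 (R 4.3.3, eBayes with a trend, two-sided) was run on log2(TPM + 0.1) for genes with at least 0.1 TPM in at least 8 samples, on the compared groups alone, with Benjamini-Hochberg adjustment over all genes and calls at an adjusted p under 0.05. The log2(value + pseudocount) scale understates changes of low genes. The steps were tested on simulated data. Symbols and coordinates came from GENCODE M21 (52489 of 52636 IDs found), promoters from RefSeq tables, whose entries were used for 5 of 7 members. Named genes were all members, *Brd1*, *Fos*, *Junb*, *Npas4*, *Arc*, up to 4 called genes per fixed list, and the 3 genes most like each member (5 for their mean, of which 1 is not reported here). The lists held 158 entries, all matched. Members and lists were chosen with earlier results of these data known. Replicates are separate mice per the labels. Python 3.11.15, numpy 2.4.6 and scipy 1.17.1 were used for correlations. Alternatives covered pseudocounts, filters, scaling, the eBayes trend, samples in the fit, a replicate block, code ranges, marker scores and leaving out each library.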

Additional observations from a re-analysis of the deposited data

Results flagged for a closer look

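*Egr2* in WT IMN replicate 1 was at 8.43 TPM, far above the next library at 3.85, and in Brd1+/- IMN replicate 3 it was at 9.03 TPM, with the next at 4.11. *Nr4a2* in WT FLX replicate 6 was at 20.9 TPM, with the next at 6.12. Each stood apart by Dixon's test of the gap against the range among 8 libraries, and 42 groups of a gene were tested. The test was run on TPM and not on the log2 scale used elsewhere. It flags about 1 in 20 groups by chance if values are normally distributed, which was not checked for these TPM values.

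The interaction of genotype and FLX was called in limma for *Egr2* (2.49 on the log2 scale), *Egr4* (2.28) and *Nr4a1* (1.50). The hypothalamic and thalamic marker score moved with this contrast. With that score as a covariate the values were 1.21, 1.13 and 0.57, and none was called.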

How the results depend on the processing

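The fits without covariates rest on the punches having like tissue content, which the marker scores do not show, and depth cannot be read from TPM. The number of members called for FLX against vehicle in WT mice (1, *Egr1*) became 0 with eBayes without a trend, in 1 fit of all 48 libraries, with the code-range term, with the 3 scores of striatum, oligodendrocytes and choroid plexus, and with each of the 4 hypothalamic, excitatory or combined settings added later, and 2 with the striatal score. For the interaction of genotype and FLX (3 called) it became 1 without a filter, with the code-range term and with the excitatory score, 0 with the 3 scores, the hypothalamic and thalamic score, both scores added later and the libraries under 100 TPM. For the genotypes under vehicle it became 1 (0 called) with the striatal score. Over all settings other than leaving out a library, 164 of 183 counts kept within 1.5 times the reported count. Most of these counts belong to comparisons with no called member, where 0 that stayed 0 was scored as kept. The share therefore does not describe the comparisons with called members. With a hypothalamic and thalamic covariate the FLX difference between genotypes reversed for *Egr3* (-0.14) and *Nr4a1* (-0.15), and with both scores for *Egr2* (-0.038), *Egr3* (-0.19) and *Nr4a1* (-0.20). The cause was not tested. Of 21 pairs correlated, 18 passed over all libraries and 9 within the vehicle codes.

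Leaving out 1 library at a time gave 0 to 3 called members for FLX against vehicle in WT mice, 0 to 1 for the genotypes under FLX, 1 to 4 for the interaction of genotype and FLX, and 0 to 0 elsewhere. *Egr4* kept its interaction in all 32 such fits (adjusted p 0.00471 to 0.0277). *Egr1* in WT FLX was still called without WT FLX replicates 6 or 8 or WT vehicle replicates 1, 3, 5 or 7, and not without any of the other 10 (adjusted p 0.0513 to 0.0792). The *Egr2* interaction was lost in 18 of 32 fits (0.0541 to 0.0824) and kept without WT FLX 4, 5, 6 or 8, WT vehicle 3, 6, 7 or 8, Brd1+/- vehicle 3, 6 or 8, or Brd1+/- FLX 2, 4 or 6. The *Nr4a1* interaction was lost in 21 of 32 (0.0544 to 0.0882) and kept without WT FLX 4, 5, 6 or 8, WT vehicle 3 or 7, Brd1+/- vehicle 3, 6 or 8, or Brd1+/- FLX 4 or 6.

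Replicate numbers follow no stated pairing. Of same-numbered pairs, 25 of 72 had deviations correlated above 0.1, and 8 of 72 correlated best with their own number. Tissue markers varied widely between punches, so these values cannot show whether same-numbered mice were related. With a replicate block the calls were 0 for FLX in WT mice, 2 for the interaction with FLX and 0 in the other 9 comparisons.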

Other observations

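*Junb*, the immediate-early partner of Fos in AP-1, was listed at exactly 0 in 3 of 8 WT vehicle, 5 of 8 WT IMN, 8 of 8 WT FLX, 2 of 8 Brd1+/- vehicle, 4 of 8 Brd1+/- IMN and 1 of 8 Brd1+/- FLX libraries, and reached 107 TPM elsewhere. In libraries where it was listed at 0 every Egr and Nr4a member was above 0. Whether these zeros are absent reads or failed estimates was not tested, since the depth is unknown.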
